A study of Homo sapiens with 12 samples.

Results

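Transcripts of 10 megakaryocyte and platelet genes were followed in HEL cells given hairpins against JAK2. The genes were ITGA2B, ITGB3, GP1BA, GP1BB, GP9, CD9, PF4, PPBP, SELP and VWF, and every probe set that the platform annotation gives to 1 of them alone was taken, which left 20 of the 22406 probe sets tested. HEL is a human erythroleukaemia line with an activating JAK2 mutation. The cells had received a lentivirus with 1 of 2 JAK2 hairpins, named Jak2-10 and Jak2-9, a luciferase hairpin (Luc) or a GFP control, all in a pLKO vector with puromycin selection per the labels, and each of the 4 groups held 3 one-colour Affymetrix arrays. All groups share the JAK2 mutation, and the labels call GFP both a vector and a hairpin control and give no time after infection. Nothing in the labels says that the 3 arrays of a group came from separate cultures, and the p-values below cover only their spread, which may be technical. The cells are 1 line in bulk, and fewer cells of a type and less RNA per cell cannot be told apart.

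Megakaryocytes are the large marrow cells that shed platelets, and they grow and mature under thrombopoietin, whose receptor signals through JAK2. Platelets adhere to damaged vessels through the GPIb-IX complex, which binds von Willebrand factor, and aggregate through the integrin alphaIIb-beta3, which binds fibrinogen. Their alpha granules store chemokines, adhesive proteins and P-selectin and release them on activation.

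JAK2, the hairpins' target, read 1066, 1049 and 880 intensity units on the 3 Jak2-10 arrays and 661, 952 and 1086 on the 3 Jak2-9 arrays at its brighter probe set. The Luc arrays read 1420, 1589 and 1510 and the GFP arrays 1422, 1347 and 1638, so every hairpin array lay below every control array. JAK2 fell by 0.75 on the log2 scale with Jak2-9 (SE 0.14, adjusted p = 0.00569) and by 0.67 over both hairpins (SE 0.11, adjusted p = 0.0026). With Jak2-10 the log2 fold change of -0.58 had an adjusted p of 0.0556, and leaving Jak2-9 replicate 1 or 3 out of the shared fit brought that p to 0.00201 to 0.0269 (up to 0.359 without another array). Quantile normalization, a filter on the dimmest probe sets, an intensity trend, array weights and leaving the Jak2-9 arrays out of the fit also brought it under the threshold (0.00261 to 0.0492). Its dimmer probe set also had every hairpin array below every control array, with log2 fold changes of -0.63 with Jak2-10 (adjusted p = 0.329), -0.84 with Jak2-9 (adjusted p = 0.0412) and -0.73 over both (adjusted p = 0.032), and on leaving out 1 array both calls there were kept only without a Jak2-9 array (otherwise 0.0598 to 0.0922). The Jak2-9 value at that probe set was -0.42 without Jak2-9 replicate 1 (adjusted p = 0.0185). The Jak2-10 value there passed without that array (adjusted p = 0.000192), in a fit of only the arrays compared (0.000506) and with array weights (0.00252). The Jak2-9 call there ended in a fit of only the arrays compared (0.0955), and the call over both hairpins ended against GFP alone (0.163) and against Luc alone (0.116). Adjusted p-values are from limma's moderated test, with Benjamini-Hochberg adjustment over all 22406 probe sets, and a probe set was called at an adjusted p under 0.05. Correlation between the arrays of a group was 0.9948 to 0.9974 for Jak2-10, 0.9847 to 0.997 for Jak2-9, 0.9963 to 0.9972 for Luc and 0.9962 to 0.9974 for GFP. Jak2-9 replicate 1 stood apart: it had the lowest JAK2 reading, and it was the highest of the 12 arrays at 9 of the 20 probe sets described here. How often it was the highest over all tested probe sets was not counted. The 9 therefore cannot be read as particular to these genes.

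Of the 10 genes, 8 had a signal above background. The array carries 9 probe sets for Arabidopsis transcripts, which read 16.5 to 25.8 over all arrays, and 13 of the 20 probe sets read above that range on every array. ITGA2B, ITGB3, GP1BA, GP1BB, GP9, CD9, PF4 and SELP each had at least 1 such probe set. PPBP and VWF had none, so signal above background was seen for adhesion receptors, CD9, P-selectin and PF4, but not for these 2 granule genes. Such signal alone does not show a platelet identity. The plot of the brightest probe set of each gene shows the levels by array.

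**Figure D1:**
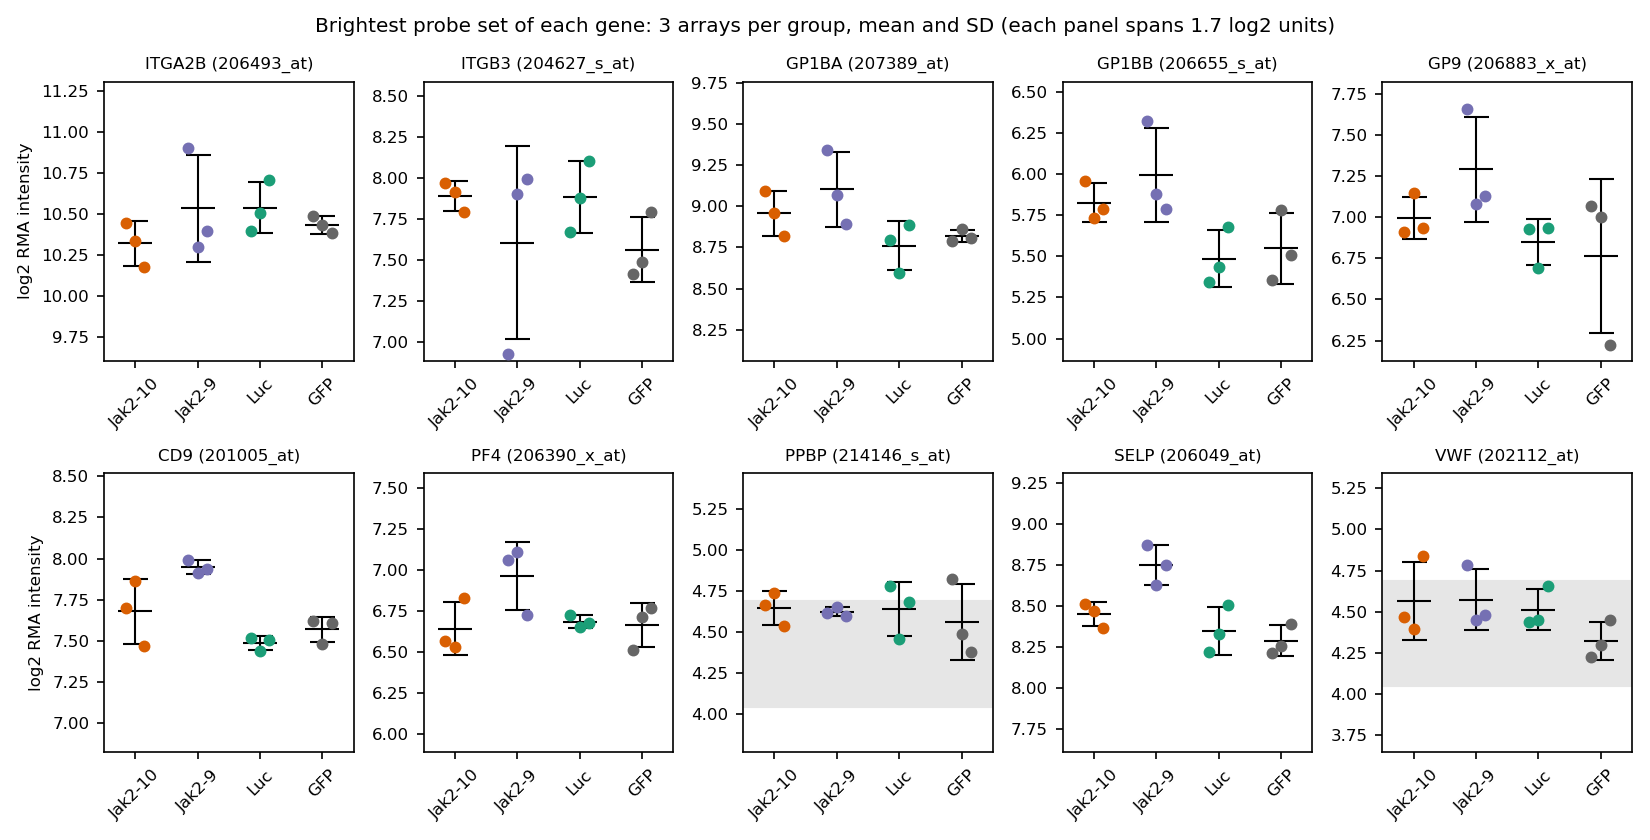
Log2 intensity of the brightest probe set of each of the 10 genes on the 12 arrays, with Jak2-10, Jak2-9, Luc and GFP from left to right. Points are arrays, bars are the mean ± SD of 3 arrays, each panel spans the same number of log2 units, and the grey band is the range of the Arabidopsis control probe sets; SELP and CD9 stand higher in Jak2-9, and PPBP and VWF lie at the band.

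With Jak2-9, 2 of the 20 probe sets were called, those of CD9 and SELP, both higher, and none was lower. Of all tested probe sets, 4.27% were called there, 1.64% as higher and 2.62% as lower. These shares moved with single arrays: the 368 higher and 588 lower calls became 88 and 402 without Jak2-9 replicate 1, 721 and 726 without Jak2-9 replicate 2 and 1061 and 959 without Jak2-9 replicate 3, and leaving out any array but Jak2-10 replicate 3 moved the higher calls by over 1.5-fold. With Jak2-10 none of the 20 was called, against 1.37% of all, and over both hairpins none was called, against 3.14% of all. At an unadjusted p under 0.05, 8 of the 20 were higher with Jak2-9 (13.5% of all), 1 was higher with Jak2-10 (2.81% of all) and 6 were higher over both hairpins (8.98% of all). None was lower at that p with Jak2-9, Jak2-10 or both, where 8.63%, 4.29% and 6.99% of all were. The median log2 fold change of the 20 was 0.06 with Jak2-10, 0.16 with Jak2-9 and 0.12 over both, beside 0.02, 0.04 and 0.03 over all tested probe sets. Log2 fold changes above 0 were found at 16 of 20 with Jak2-10 (56.3% of all), 16 of 20 with Jak2-9 (60.1% of all) and 17 of 20 over both (60.4% of all). The 20 did not stand for 20 genes, as 7 were of ITGB3 and 4 of ITGA2B. On at least 1 array, 7 of the 20 read within the Arabidopsis range. Between the 2 controls, in Luc minus GFP, the median of the 20 was 0.07, beside -0.007 over all tested probe sets. There 15 of the 20 lay above 0, and the share of all tested probe sets above 0 is not given for that comparison. Among the 20, values above 0 were thus also the more frequent between the controls, without a share to set beside them.

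**Figure D2:**
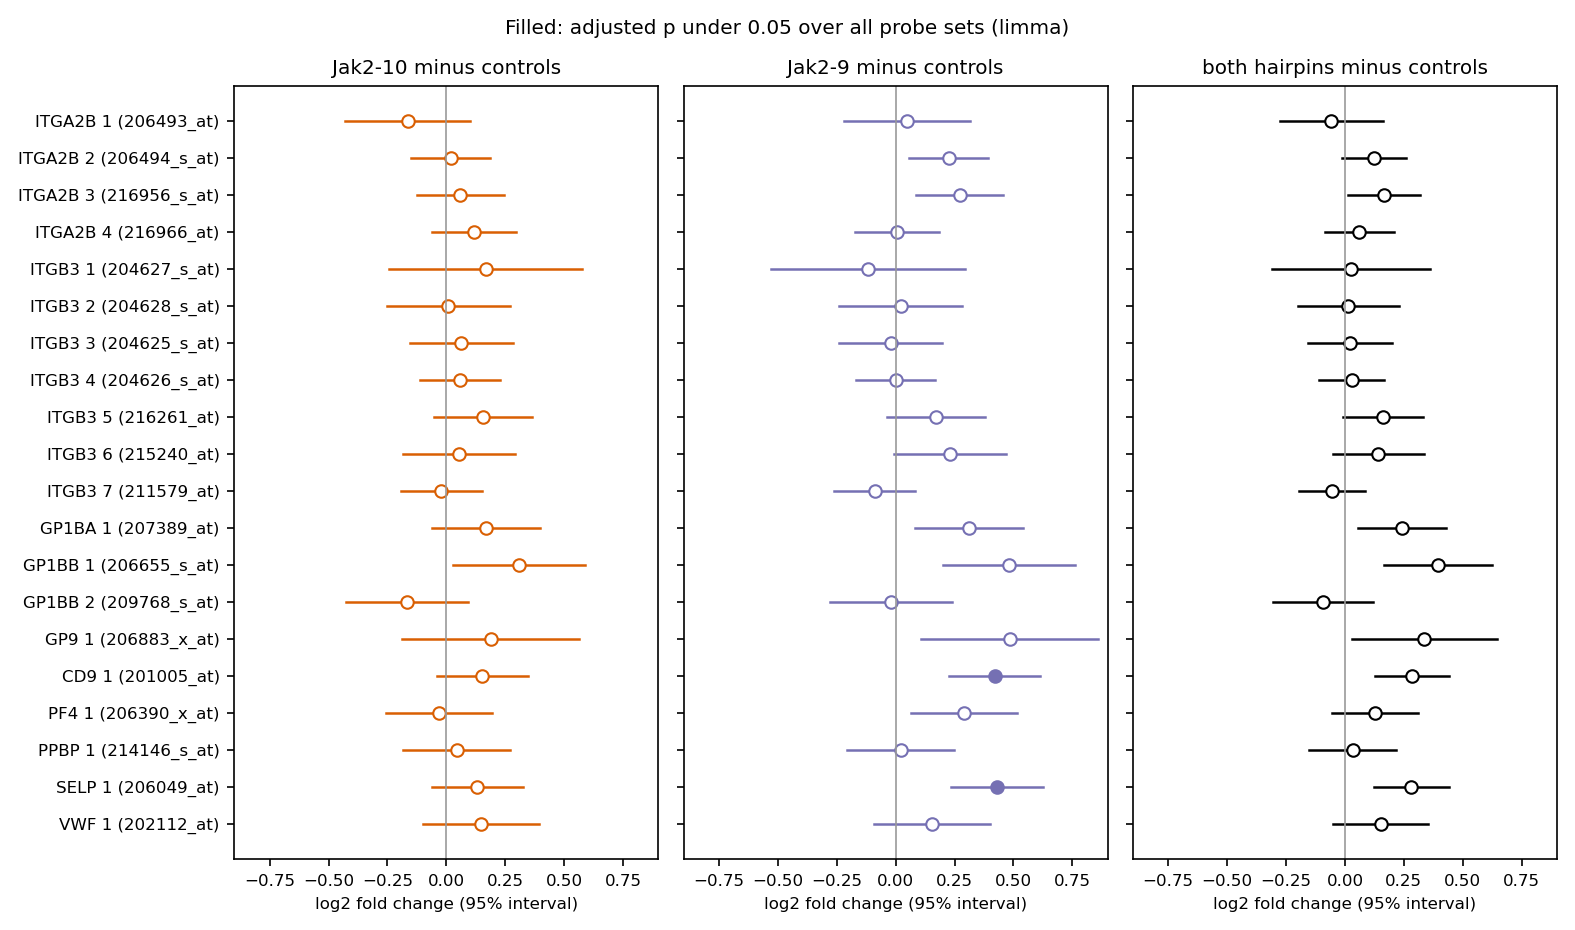
Log2 fold change of the 20 probe sets in Jak2-10, in Jak2-9 and in both hairpins minus the controls (horizontal axis), 1 row per probe set, numbered within its gene from the brightest, with 95% intervals from limma. Filled points had an adjusted p under 0.05; these are CD9 and SELP in Jak2-9 alone among the 3 comparisons.

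SELP encodes P-selectin, the granule membrane protein that reaches the platelet surface on activation and binds leukocytes. Its probe set read 365, 355 and 331 on the Jak2-10 arrays, 468, 396 and 431 on the Jak2-9 arrays, 298, 321 and 363 on the Luc arrays and 297, 307 and 336 on the GFP arrays. All 3 Jak2-9 arrays lay above the other 9 arrays, while Jak2-10 overlapped the controls. SELP rose 1.35-fold with Jak2-9 (95% interval 1.18 to 1.54, limma adjusted p = 0.0161), a log2 fold change of 0.43 with an SE of 0.09. With Jak2-10 the log2 fold change was 0.13 (interval -0.06 to 0.33, adjusted p = 0.923). Over both hairpins it was 0.28 (SE 0.07, adjusted p = 0.057), with 4 of the 6 hairpin arrays above every control array, and leaving out Jak2-9 replicate 2 or Luc replicate 3 brought that p to 0.0433 to 0.0436 (up to 0.158 without another array). Without Jak2-9 replicate 1 the Jak2-9 value was 0.37 with an adjusted p of 0.0611, so the call was lost.

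CD9 encodes a tetraspanin, a membrane protein that organises integrins and other receptors and is abundant on platelets. It read 208, 233 and 177 on the Jak2-10 arrays, 255, 241 and 245 on the Jak2-9 arrays, 183, 173 and 181 on the Luc arrays and 197, 179 and 195 on the GFP arrays. All 3 Jak2-9 arrays lay above all 9 others, and the Jak2-10 arrays spread across and above the controls. CD9 rose 1.34-fold with Jak2-9 (95% interval 1.17 to 1.53, limma adjusted p = 0.0178), a log2 fold change of 0.42 with an SE of 0.09. With Jak2-10 the log2 fold change was 0.15 (interval -0.04 to 0.34, adjusted p = 0.859). Over both hairpins it was 0.29 (SE 0.07, adjusted p = 0.0514), with 5 of 6 hairpin arrays above every control array, and without Jak2-10 replicate 3 the adjusted p was 0.0129 (up to 0.143 without another array). Without Jak2-9 replicate 1 the Jak2-9 value was 0.40 with an adjusted p of 0.0524, so this call was lost too.

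Set against each control alone, CD9 was called in Jak2-9 minus Luc (log2 fold change 0.46, adjusted p = 0.0265) and not in Jak2-9 minus GFP (0.38, adjusted p = 0.104). SELP was called in Jak2-9 minus GFP (0.46, adjusted p = 0.0463) and not in Jak2-9 minus Luc (0.40, adjusted p = 0.0588). The order of group means was Jak2-9, Jak2-10, GFP and Luc for CD9 and Jak2-9, Jak2-10, Luc and GFP for SELP. Of neighbours in these orders, none differed past the threshold, since neither the 2 hairpins nor the 2 controls did, and nor did Jak2-10 from GFP at CD9 (0.11, adjusted p = 1.00) or from Luc at SELP (0.10, adjusted p = 0.999).

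The bases before the transcription start are shown for genes on both sides of these results: the called SELP and CD9, the GPIb-IX subunits GP9 and GP1BB, and PPBP, whose signal was at background. Of the 10 genes, 6 had a promoter in the RefSeq table (GRCh38.p14), with 9 starts in all, 4 of them of CD9. The 250 bases upstream of each start were searched on both strands for GATAA, the core bound by GATA factors, for GGAAG, a core bound by ETS factors, and for TTCNNNGAA, the motif of STAT factors. Capitals mark GATAA or its complement TTATC and GGAAG or its complement CTTCC, written 5′ to 3′ on the gene's strand.
SELP, chr1:169630125-169630374, minus strand: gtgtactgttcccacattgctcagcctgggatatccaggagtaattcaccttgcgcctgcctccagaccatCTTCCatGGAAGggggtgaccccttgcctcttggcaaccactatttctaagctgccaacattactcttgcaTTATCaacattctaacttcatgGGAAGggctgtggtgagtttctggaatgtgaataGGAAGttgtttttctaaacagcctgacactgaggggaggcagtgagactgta
CD9, outermost start, chr12:6199696-6199945, plus strand: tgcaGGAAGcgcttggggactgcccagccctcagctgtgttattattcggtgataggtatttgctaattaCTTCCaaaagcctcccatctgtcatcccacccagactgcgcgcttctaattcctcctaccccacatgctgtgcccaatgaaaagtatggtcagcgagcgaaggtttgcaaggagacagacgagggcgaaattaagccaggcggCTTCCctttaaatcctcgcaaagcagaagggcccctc
GP9, chr3:129060529-129060778, plus strand: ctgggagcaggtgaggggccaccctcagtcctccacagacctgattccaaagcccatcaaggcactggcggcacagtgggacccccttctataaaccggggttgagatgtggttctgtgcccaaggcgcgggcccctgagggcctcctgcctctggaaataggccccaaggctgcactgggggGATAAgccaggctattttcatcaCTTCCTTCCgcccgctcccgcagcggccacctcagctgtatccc
GP1BB, chr22:19723289-19723538, plus strand: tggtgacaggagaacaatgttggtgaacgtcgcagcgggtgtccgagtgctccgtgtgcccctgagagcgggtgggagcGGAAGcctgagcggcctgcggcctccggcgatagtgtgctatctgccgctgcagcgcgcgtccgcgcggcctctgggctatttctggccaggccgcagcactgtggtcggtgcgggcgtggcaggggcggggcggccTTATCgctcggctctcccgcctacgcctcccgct
PPBP, chr4:73988191-73988440, minus strand: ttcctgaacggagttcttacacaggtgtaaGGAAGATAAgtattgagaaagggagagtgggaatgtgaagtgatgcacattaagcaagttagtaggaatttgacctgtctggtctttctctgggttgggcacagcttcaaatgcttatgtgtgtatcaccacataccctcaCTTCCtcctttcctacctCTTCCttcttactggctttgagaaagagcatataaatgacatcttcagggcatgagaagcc

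SELP held 1 GATAA and 4 GGAAG, GP9 held 1 and 2, GP1BB 1 and 1, and PPBP 1 and 3, with its GATAA overlapping a GGAAG by 1 base. The outermost CD9 start held 3 GGAAG and no GATAA, and none of the 4 CD9 starts held a GATAA. ITGA2B, searched and not printed, held 1 GGAAG and no GATAA. Of all 35116 promoter windows of this length, 20.4% held GATAA, 65.1% held GGAAG, 12.1% held both and 6.57% held TTCNNNGAA, which was in none of the 9. GATA followed by another base, as in the ITGA2B and outermost CD9 windows, was not searched for. A window without GATAA can therefore still hold a GATA site. The matches describe letters in these windows only.

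The integrin alphaIIb-beta3 is the receptor by which platelets bind fibrinogen, and ITGA2B encodes its alpha subunit, the early marker CD41. Probe sets of a gene are numbered here from the brightest, by mean log2 intensity over the 12 arrays. At ITGA2B probe set 2 the Jak2-10 arrays read 1299, 1304 and 1310, the Jak2-9 arrays 1660, 1385 and 1483, the Luc arrays 1288, 1290 and 1371 and the GFP arrays 1270, 1279 and 1233. Jak2-9 lay above all controls there, and Jak2-10 lay among the Luc arrays. The log2 fold change was 0.23 with Jak2-9 (SE 0.08, adjusted p = 0.115), 0.02 with Jak2-10 (adjusted p = 1.00) and 0.12 over both (adjusted p = 0.37).

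ITGA2B probe set 3 likewise had all Jak2-9 arrays above all controls, with 717, 673 and 640 on the Jak2-10 arrays, 884, 728 and 746 on the Jak2-9 arrays, 662, 630 and 720 on the Luc arrays and 631, 623 and 632 on the GFP arrays. Its log2 fold change was 0.27 with Jak2-9 (SE 0.09, adjusted p = 0.0902), 0.06 with Jak2-10 (adjusted p = 0.996) and 0.17 over both (adjusted p = 0.265). Probe sets of ITGA2B did not move alike. At probe set 1, which read 1395, 1292 and 1159 in Jak2-10, 1915, 1262 and 1347 in Jak2-9, 1348, 1456 and 1668 in Luc and 1433, 1381 and 1334 in GFP, all groups overlapped. There the log2 fold change was -0.16 with Jak2-10 and 0.05 with Jak2-9, and -0.14 with Jak2-9 when replicate 1 was left out, and it was -0.06 over both. Probe set 4 of ITGA2B read 18.8 to 24.5, within the Arabidopsis range, with log2 fold changes of 0.12 with Jak2-10, 0.01 with Jak2-9 and 0.06 over both.

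ITGB3 encodes the beta3 subunit, which also pairs with the alphaV integrin. At its probe set 1 the Jak2-10 arrays read 251, 241 and 221, the Jak2-9 arrays 122, 239 and 255, the Luc arrays 204, 235 and 276 and the GFP arrays 171, 180 and 221. All groups overlapped, and Jak2-9 replicate 1, the highest array at ITGA2B probe sets 1 to 3, was the lowest here. The log2 fold change was 0.17 with Jak2-10 (SE 0.19), -0.12 with Jak2-9 (SE 0.19) and 0.02 over both (SE 0.16), with adjusted p-values of 0.991, 0.757 and 0.954, and without Jak2-9 replicate 1 the Jak2-9 value was 0.22. The other 6 ITGB3 probe sets, numbered 2 to 7, read 75.6 to 117, 47.5 to 68.2, 32.3 to 39.8, 24.5 to 34.3, 18.1 to 27.6 and 18.2 to 23.0. Their log2 fold changes over both hairpins, in that order, were 0.01, 0.02, 0.03, 0.16, 0.14 and -0.06, and none was called. With Jak2-9 they were 0.02, -0.02, 0.00, 0.17, 0.23 and -0.09, and with Jak2-10 0.01, 0.06, 0.06, 0.16, 0.05 and -0.02. The Jak2-9 values of probe sets 2 and 6 were 0.18 and 0.11 without Jak2-9 replicate 1.

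The GPIb-IX complex holds platelets to von Willebrand factor under flow, and 3 of its subunits were measured. GP1BA, the subunit that carries the binding site, read 547, 497 and 451 in Jak2-10, 650, 538 and 475 in Jak2-9, 444, 387 and 474 in Luc and 442, 465 and 448 in GFP. The Jak2-9 arrays lay above all controls, the lowest of them by little, and Jak2-10 overlapped them. The log2 fold change was 0.31 with Jak2-9 (SE 0.11, limma adjusted p = 0.111), 0.17 with Jak2-10 (adjusted p = 0.893) and 0.24 over both (SE 0.09, adjusted p = 0.187), so it was not called. The Jak2-9 value was 0.19 without Jak2-9 replicate 1 (adjusted p = 0.47), and without Jak2-9 replicate 3 it was 0.42 (adjusted p = 0.0388).

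GP1BB, the beta subunit linked to GP1BA by disulphide bonds, read 62.3, 53.1 and 55.2 in Jak2-10, 80.1, 58.9 and 55.2 in Jak2-9, 40.5, 43.2 and 51.2 in Luc and 40.9, 55.0 and 45.5 in GFP at probe set 1. All hairpin arrays but Jak2-10 replicate 2 lay above every control, and that array lay just below the highest GFP array. The log2 fold change was 0.48 with Jak2-9 (SE 0.13, adjusted p = 0.0543), 0.31 with Jak2-10 (SE 0.13, adjusted p = 0.606) and 0.40 over both (SE 0.11, adjusted p = 0.0666). Without Jak2-9 replicate 1 the Jak2-9 value was 0.32 with an adjusted p of 0.246, and leaving out Jak2-9 replicate 3 or GFP replicate 2 instead put it past the threshold (adjusted p = 0.0282 to 0.0469), and the value over both hairpins likewise (0.0341 to 0.0472). The Jak2-9 value also passed with median centring (limma adjusted p = 0.0333), quantile normalization (0.0467) and a filter on the dimmest probe sets (0.0496). The value over both hairpins passed with median centring (0.0414) and array weights (0.0418). GP1BB probe set 2 read 21.3 to 36.0 on the 12 arrays, partly within the Arabidopsis range, and overlapped in all groups, with log2 fold changes of -0.17 with Jak2-10, -0.02 with Jak2-9 and -0.09 over both. A further probe set that the annotation shares between GP1BB and its neighbour SEPTIN5 was left out by the rule.

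GP9, the small subunit that the complex needs to reach the surface, read 120, 142 and 122 in Jak2-10, 202, 136 and 140 in Jak2-9, 122, 103 and 123 in Luc and 134, 128 and 74.6 in GFP. Jak2-9 lay above all controls through 1 high array and 2 just above the highest GFP value, and GFP replicate 3 was low. The log2 fold change was 0.48 with Jak2-9 (SE 0.18, adjusted p = 0.129), 0.19 with Jak2-10 (adjusted p = 0.969) and 0.34 over both (adjusted p = 0.265). Without Jak2-9 replicate 1 the Jak2-9 value was 0.30 with an adjusted p of 0.518.

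**Figure D3:**
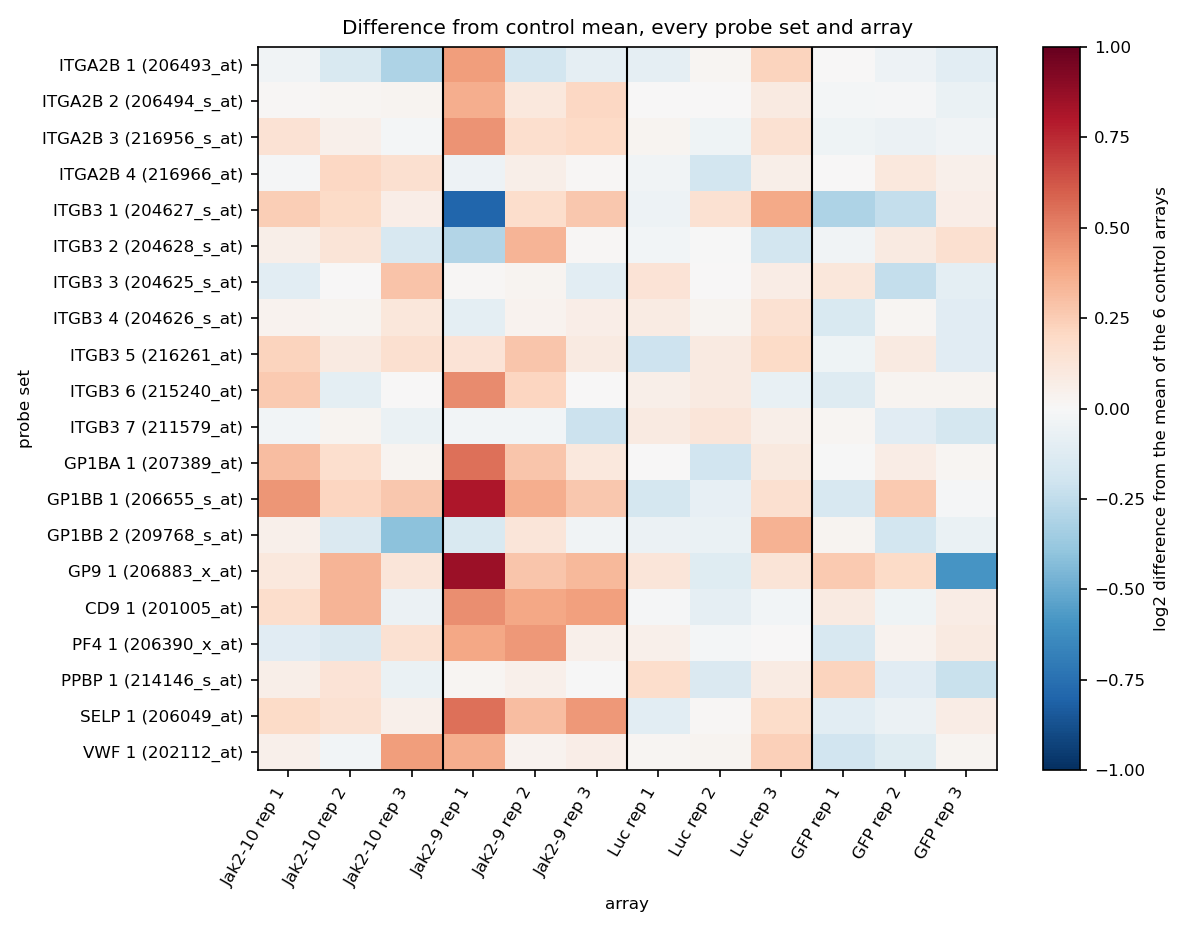
Log2 difference of each array from the mean of the 6 control arrays (colour, from -1 to 1) at the 20 probe sets (rows), with the Jak2-10, Jak2-9, Luc and GFP arrays as columns from left to right. Jak2-9 replicate 1 is the highest array at 9 rows, among them CD9, SELP, GP1BA, GP9 and 3 ITGA2B probe sets, and is low at ITGB3 probe set 1.

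Among the stored proteins, PF4 encodes a heparin-binding chemokine of the alpha granule. It read 94.8, 92.6 and 114 in Jak2-10, 134, 138 and 106 in Jak2-9, 106, 101 and 102 in Luc and 91.5, 105 and 109 in GFP. Of the Jak2-9 arrays, 2 lay above all controls and 1 lay among them, and Jak2-10 overlapped the controls. The log2 fold change was 0.29 with Jak2-9 (SE 0.10, adjusted p = 0.13), -0.03 with Jak2-10 (adjusted p = 1.00) and 0.13 over both (adjusted p = 0.492), and without Jak2-9 replicate 3 the Jak2-9 adjusted p was 0.0342 (up to 0.405 without another array). PF4V1 is a near-identical copy, and signals of the 2 genes cannot be told apart with certainty at this probe set.

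PPBP, the precursor of a neutrophil-attracting chemokine, read 23.2 to 26.7 in Jak2-10, 24.3 to 25.2 in Jak2-9, 22 to 27.5 in Luc and 20.8 to 28.3 in GFP. VWF, the multimeric ligand of GPIb, read 21.0 to 28.6 in Jak2-10, 21.8 to 27.6 in Jak2-9, 21.7 to 25.2 in Luc and 18.7 to 21.8 in GFP. Both overlapped the Arabidopsis range, and neither was called. Their log2 fold changes over both hairpins were 0.03 for PPBP (adjusted p = 0.88) and 0.15 for VWF (adjusted p = 0.457). With Jak2-10 they were 0.04 and 0.15, and with Jak2-9 0.02 and 0.15, for PPBP and VWF in turn, and without Jak2-9 replicate 1 the Jak2-9 value of VWF was 0.05.

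Counted by overlap, 7 of the 20 probe sets, of 6 genes, had all 3 Jak2-9 arrays above all 6 control arrays, and 7.48% of all tested probe sets did. They were those of CD9, GP1BA, GP1BB, GP9 and SELP and 2 of ITGA2B, and at all 7 Jak2-9 replicate 1 was the highest of the 12 arrays. The overlap rule that picked these 7 itself favours a Jak2-9 array as the highest. None had all Jak2-9 arrays below the controls (4.71% of all), and none separated fully with Jak2-10 (2.58% of all higher, 3.31% lower) or over both hairpins (1.03% higher, 2.13% lower). Summed over the brightest probe sets of the 10 genes, the intensity was 2683 to 3092 in Jak2-10, 3055 to 3877 in Jak2-9, 2794 to 3289 in Luc and 2806 to 2853 in GFP. A large part of each sum was ITGA2B probe set 1, which read 1159 to 1915 and overlapped in all groups. Its highest reading was in Jak2-9 replicate 1.

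The hairpins were then compared with each other. In Jak2-10 minus Jak2-9 no member was called, and neither was any of the 22406 probe sets (0% called). At an unadjusted p under 0.05 there were 4 of the 20, beside 8.56% of all in either direction. All 4 were lower, but the share of all that were lower is not given, so their direction has no benchmark. The lowest p-values among the 20 were those of SELP, with a log2 difference of -0.30 (95% interval -0.52 to -0.07, adjusted p = 0.572), and PF4, with -0.32 (interval -0.58 to -0.06, adjusted p = 0.572). All Jak2-10 arrays lay below all Jak2-9 arrays at 4 of the 20, those of CD9, SELP and 2 of ITGA2B, and at 7.21% of all probe sets, and none of the 20 lay wholly above (3.69% of all). The adjusted test thus did not show a difference between the hairpins at any of the 20, although calls were made with Jak2-9 and not with Jak2-10.

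In Luc minus GFP no member and no other probe set was called (0% of 22406). At an unadjusted p under 0.05 there were 0 of the 20 and 2.5% of all. The lowest p-values were those of 2 ITGB3 probe sets, number 7 with a log2 difference of 0.18 (SE 0.09) and number 4 with 0.17 (SE 0.09), both with a limma adjusted p of 1.00. Luc lay wholly above GFP at 3 of the 20, these 2 and ITGA2B probe set 2, and at 4.28% of all, and wholly below at none of the 20 (5.44% of all). At ITGB3 probe set 1 the log2 difference was 0.32 with an SE of 0.22 (adjusted p = 1.00).

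Genes of other megakaryocyte and platelet proteins were read at their brightest probe sets, from lists chosen with earlier results of these data known. Of 23 measured platelet receptors and signalling proteins, 1 was lower over both hairpins and none was higher. Of all 22406 tested probe sets, 563 were called lower and 141 higher there. P2RX1, an ATP-gated channel of platelets, fell to 80.0 ± 9.11 in Jak2-10 and 81.1 ± 6.15 in Jak2-9, against 110 ± 8.70 in Luc and 92.9 ± 2.31 in GFP (SD, n = 3 each), by 0.33 on the log2 scale (limma adjusted p = 0.0258). The call ended against GFP alone (-0.21, adjusted p = 0.455), with quantile normalization (0.0654), with an intensity trend (0.0966) and when Jak2-10 replicate 1, Jak2-9 replicate 3, Luc replicate 3, GFP replicate 1 or GFP replicate 2 was left out (adjusted p = 0.0501 to 0.0792). The list's median log2 fold change was -0.01 with Jak2-10, -0.03 with Jak2-9 and -0.01 over both.

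Of 22 other granule and secreted proteins, none was called with Jak2-10 (1.37% of all tested probe sets) or over both (3.14% of all). With Jak2-9, where 1.64% of all were called higher, 1 was higher. FGG, a fibrinogen chain, was that gene, with a log2 fold change of 0.39 (adjusted p = 0.0375) at intensities of 18.4 to 29.8 that overlap the Arabidopsis range, and on leaving out 1 array its call was kept only without Jak2-10 replicate 3, Jak2-9 replicate 3 or GFP replicate 1 (adjusted p = 0.0545 to 0.164 without any of the others, the highest without Jak2-9 replicate 1). It also ended in a fit of only the arrays compared (0.0762). The list's medians were 0.04 with Jak2-10, 0.10 with Jak2-9 and 0.06 over both. None of 15 eicosanoid, cytoskeleton and platelet formation genes was called in any of the 3 comparisons. The lowest p-values over both hairpins there were those of ACTN1, an actin crosslinker (0.24, adjusted p = 0.152), and MYL9, a myosin light chain (0.22, adjusted p = 0.225), and the medians were 0.04, 0.08 and 0.04.

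Of 13 megakaryocyte transcription factors, 1 was higher with Jak2-9 (1.64% of all tested probe sets) and over both hairpins (141 of all 22406). GFI1B, a zinc finger repressor of erythroid and megakaryocyte cells, read 776 ± 30.3 in Jak2-10, 918 ± 45.4 in Jak2-9, 686 ± 41.7 in Luc and 700.4 ± 68.1 in GFP (SD, n = 3 each). It rose by 0.41 on the log2 scale with Jak2-9 (SE 0.08, limma adjusted p = 0.0148), and that call held on leaving out each of the 12 arrays. Over both hairpins the value was 0.29 (adjusted p = 0.0359), and on leaving out 1 array this call was kept only without Jak2-10 replicate 3, Jak2-9 replicate 1, Jak2-9 replicate 3 or GFP replicate 2, with adjusted p-values of 0.062 to 0.115 without any of the other 8. It also ended with only the brightest probe set per gene in the fit (0.0527), against GFP alone (0.215) and against Luc alone (0.0982). The list's medians were -0.02 with Jak2-10, -0.14 with Jak2-9 and -0.03 over both, with 5 of the 13 genes above 0 in each.

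**Figure D4:**
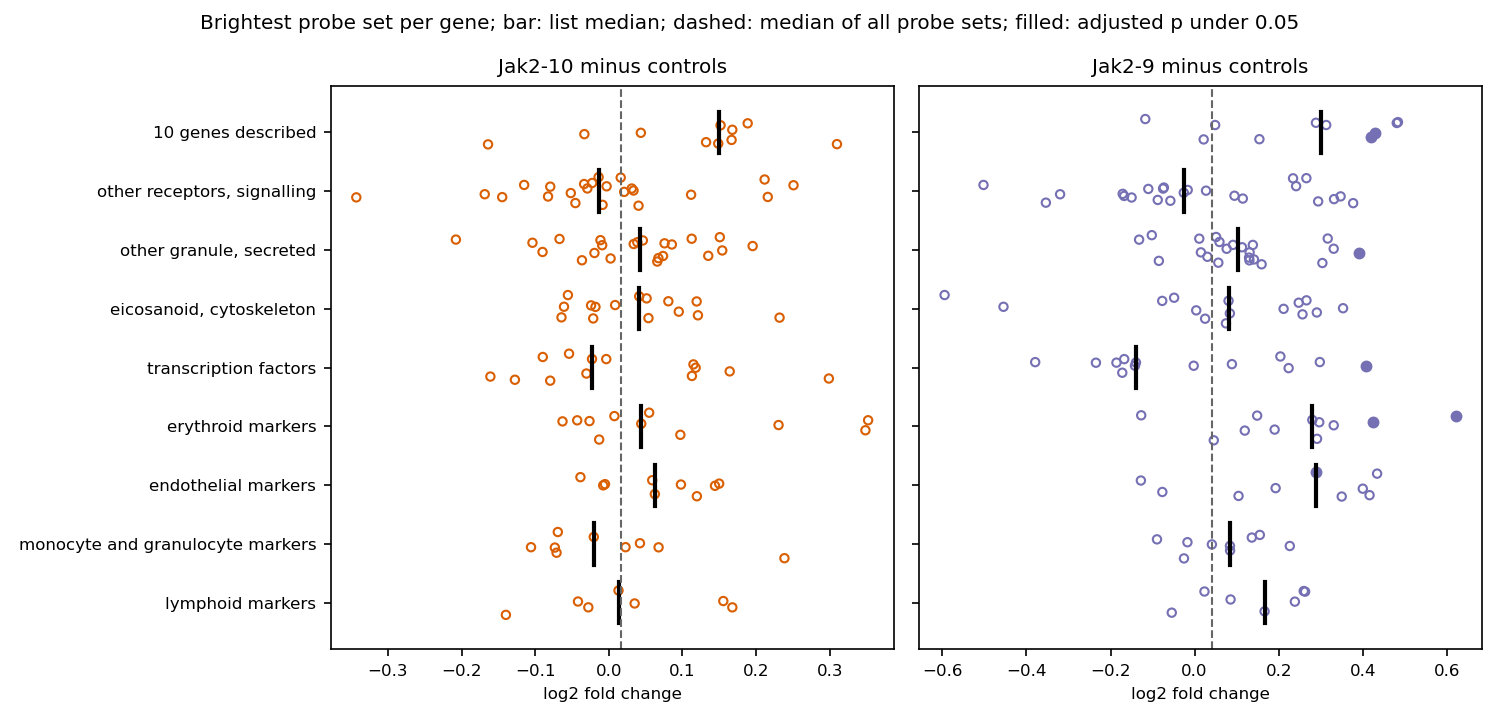
Log2 fold change against the controls per gene (points) in each gene list, for Jak2-10 (left) and Jak2-9 (right), with a bar at the list's median and a dashed line at the median of all probe sets. The 10 genes described here have medians of 0.15 with Jak2-10 and 0.30 with Jak2-9, and the erythroid and endothelial lists 0.04 and 0.06 with Jak2-10 and 0.28 and 0.29 with Jak2-9.

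Markers of other lineages were called beside the platelet genes in Jak2-9, where 1.64% of all tested probe sets were called as higher. Over both hairpins 141 of all 22406 were called as higher. At brightest probe sets the 10 genes had medians of 0.15 with Jak2-10, 0.30 with Jak2-9 and 0.20 over both. Of 11 measured erythroid markers, 2 were higher with Jak2-9, HBB (beta globin, 0.42, adjusted p = 0.0304) and HBZ (zeta globin, 0.62, adjusted p = 0.0407), and HBB was higher over both hairpins (0.33, adjusted p = 0.0456). Without Jak2-9 replicate 1 the Jak2-9 value was 0.33 for HBB (adjusted p = 0.129) and 0.34 for HBZ (adjusted p = 0.097). The HBB call with Jak2-9 also ended without Luc replicate 1 or 2 or GFP replicate 1 or 2 (0.0645 to 0.129 over these 5 omissions), and on leaving out 1 array that of HBZ was kept only without Jak2-9 replicate 2 or 3 (otherwise 0.0558 to 0.097). A fit of only the arrays compared ended both (0.0684 for HBB, 0.0937 for HBZ), array weights ended that of HBB (0.0525), and quantile normalization ended that of HBZ (0.0557). Over both hairpins the HBB call was kept only without Jak2-9 replicate 2, Luc replicate 3 or GFP replicate 3 when 1 array was left out (otherwise 0.056 to 0.136). It ended with only the brightest probe set per gene in the fit (0.0635), with an intensity trend (0.0582), against GFP alone (0.149) and against Luc alone (0.209). In the same order of comparisons their list's medians were 0.04, 0.28 and 0.13, and its summed intensity was 56980 to 63270 in Jak2-10, 62550 to 64817 in Jak2-9, 58865 to 62314 in Luc and 55811 to 62660 in GFP. Of 9 endothelial markers, a cell type that also makes P-selectin and von Willebrand factor, CDH5 was higher with Jak2-9 (0.29, adjusted p = 0.0493). Its intensities of 21.2 to 28.2 overlap the Arabidopsis range. When 1 array was left out, the CDH5 call was kept only without Jak2-9 replicate 3 or GFP replicate 2 (otherwise 0.0523 to 0.13). The CDH5 call also ended with the replicate number as a block (0.0576), quantile normalization (0.0595), only the brightest probe set per gene in the fit (0.0555) and only the arrays compared (0.0832). The endothelial medians were 0.06, 0.29 and 0.17. The endothelial sum was 1427 to 1638 in Jak2-10, 1707 to 2441 in Jak2-9, 1398 to 1586 in Luc and 1421 to 1501 in GFP. None of 9 monocyte and granulocyte markers (medians -0.02, 0.08 and 0.03) or 7 lymphoid markers (0.01, 0.17 and 0.14) was called. The part of these lineages' genes in the platelet gene values was not tested.

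The genes whose array-by-array pattern was nearest to the 2 called members were found by the root mean square difference of deviations from the mean over the 12 arrays. For CD9, whose own deviations had a root mean square of 0.196 on the log2 scale, these were TLCD3A (0.0723), TTC1 (0.0753) and CSTF1 (0.0762). For SELP, with 0.199, they were DCTN2 (0.0614), PSAP (0.0615) and MLF2 (0.0701). CD9 and SELP differed from each other by 0.116, so neither was the nearest to the other.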

How the data were processed

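Per the submitters' processing notes, the authors made the deposited table with RMA, a method that removes background, gives all arrays the same distribution and joins the probes of a set. The software version and genome build are not given in the sources used here. Per the labels' protocols, Trizol RNA was used and 20 ng of total RNA was amplified and biotin labelled. The deposited values were linear intensity (11.2 to 36233.5), with array medians of 42.8 to 46.4 over the tested probe sets, and log2 was taken of the deposited intensity with no pseudocount. Precision is limited by the small number of arrays.

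Of 22930 probe sets, 524 controls were left out, and 19415 of the 22406 tested had 1 gene symbol and 125 had several. All 12 arrays entered 1 linear model of group means in limma 3.58.1 (lmFit, eBayes) in R 4.3.3, and p-values were adjusted over all 22406 probe sets. The fit was tested on simulated data. Intervals are the model's 95% intervals on the log2 scale. Promoters and gene names came from RefSeq and the platform annotation.

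The members and gene lists were chosen with earlier results of these data known. All members are named, with their values in each hairpin comparison; for Jak2-10 minus Jak2-9 and Luc minus GFP the 2 with the lowest p are named where none was called. In each list of other platelet genes, called genes or the 2 with the lowest p are named, and in the marker lists, called genes; each gene stands for its brightest probe set. Listed genes without a probe set of their own were not analysed here. The labels do not say whether equal replicate numbers pair the arrays. Deviations of same-numbered arrays from their group means had correlations of -0.142 to 0.191 (18 pairs, median 0.049). Arrays of different numbers had -0.182 to 0.174 (36 pairs, median -0.030). These ranges overlap and cannot decide whether the arrays were paired.

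Alternatives were quantile normalization, median centring, a filter on the dimmest 30% of probe sets, the brightest probe set per gene, an intensity trend, array weights, a minimum 1.5-fold change, a replicate block, fits of only the arrays compared, single controls, and leaving out each array.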

Additional observations from a re-analysis of the deposited data

How the results depend on the processing

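In the hairpin comparisons CD9 and SELP kept their direction in every alternative. Their Jak2-9 calls were lost without Jak2-9 replicate 1, under a minimum 1.5-fold change, which no member met (0 called), and against 1 of the 2 controls alone (GFP for CD9, adjusted p = 0.104, and Luc for SELP, 0.0588), and held in the other alternatives. With Jak2-9, 2 members were called, against 4 with median centring (CD9, GP1BB, ITGA2B and SELP) and 0 to 5 on leaving out 1 array, with 0 without Jak2-9 replicate 1 and 5 without Jak2-9 replicate 3. GP1BB was called beside CD9 and SELP with quantile normalization (limma adjusted p = 0.0467) and with the dimmest 30% left out (0.0496). Over both hairpins 0 were called, against 3 with median centring and 3 with array weights (CD9, GP1BB and SELP), 1 with quantile normalization (CD9) and 0 to 1 on leaving out 1 array. No member was called with Jak2-10, between the hairpins or between the controls in any alternative. With the replicate number as a block, 2 members were called with Jak2-9 and 0 over both hairpins. The block changed no member's call and ended that of CDH5 (limma adjusted p = 0.0576). Over all probe sets it gave 491 higher and 613 lower calls with Jak2-9, against 368 and 588. Whether the same numbers pair the arrays is not known. Median centring moved the calls over all probe sets with Jak2-9 to 856 higher and 580 lower, against 368 and 588, and over both hairpins to 261 and 526, against 141 and 563. With the brightest probe set per gene the Jak2-9 calls were 191 higher and 176 lower. Array weights gave 444 and 765 over both hairpins, and 114 and 477 with Jak2-10, against 19 and 289. Against GFP alone both hairpins gave 27 higher and 250 lower, and fits of only the arrays compared gave 154 and 439 with Jak2-9. A minimum 1.5-fold change gave 71 and 392 with Jak2-9 and 13 and 299 over both. On leaving out 1 array these calls ranged from 88 to 1061 higher and 402 to 959 lower with Jak2-9, 3 to 65 and 125 to 426 with Jak2-10, and 54 to 292 and 427 to 649 over both.

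No sign change below involved a value past the threshold, and the cause of each was not tested. Over both hairpins the sign turned with array weights at ITGB3 probe set 3 (-0.0248). Against Luc alone it turned at ITGB3 probe set 3 (-0.0533), probe set 4 (-0.055) and probe set 1 (-0.1352) and PPBP (-0.0057), and against GFP alone at ITGB3 probe set 2 (-0.0567) and probe set 7 (0.0351). With Jak2-9 it turned under median centring at ITGB3 probe set 3 (0.0141) and GP1BB probe set 2 (0.0144). Quantile normalization turned ITGB3 probe set 3 (0.0145), ITGA2B probe set 1 (-0.0004) and probe set 4 (-0.0206) and PPBP (-0.0027), and array weights turned ITGB3 probe set 1 (0.1561), ITGA2B probe set 1 (-0.1426) and GP1BB probe set 2 (0.0241). With Jak2-10 it turned with array weights at ITGB3 probe set 3 (-0.0224) and under median centring at ITGB3 probe set 7 (0.0059).

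On leaving out 1 array, Jak2-9 values that crossed 0 ranged from -0.0928 to 0.0467 (GP1BB probe set 2), -0.1359 to 0.1648 (ITGA2B probe set 1), -0.0272 to 0.0351 (ITGA2B probe set 4), -0.0621 to 0.0253 (ITGB3 probe set 3), -0.0344 to 0.0508 (probe set 4), -0.3097 to 0.2219 (probe set 1), -0.14 to 0.178 (probe set 2) and -0.0244 to 0.0865 (PPBP). Over both hairpins they ranged from -0.15 to 0.0003 (ITGA2B probe set 1), -0.035 to 0.0674 (ITGB3 probe set 3), -0.0715 to 0.1943 (probe set 1), -0.0658 to 0.0932 (probe set 2) and -0.0135 to 0.0974 (PPBP). With Jak2-10 they ranged from -0.0483 to 0.1448 (ITGB3 probe set 3), -0.0511 to 0.0915 (probe set 2), -0.0465 to 0.0059 (probe set 7), -0.0468 to 0.1295 (probe set 6), -0.1268 to 0.0222 (PF4) and -0.003 to 0.1084 (PPBP). PPBP, VWF and the dim ITGB3, ITGA2B and GP1BB probe sets read near the Arabidopsis controls, which limits how firmly their values can be read.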
